A study of Caenorhabditis elegans with 2 samples.

Results

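The genes for the proteins of the cytosolic ribosome were taken from a ChIP-seq experiment on the transcription factor DAF-8 in Caenorhabditis elegans. Members were all protein-coding genes of the Ensembl annotation of WBcel235 (the ce11 assembly) whose names begin with rpl-, rps- or rla-. They numbered 81 of the 19973 protein-coding genes on the nuclear chromosomes, with 47 rpl genes of the large subunit, 31 rps genes of the small subunit and 3 rla genes of the stalk. For each gene the strongest peak was taken whose summit lay from 1000 bp upstream to 250 bp downstream of one of its transcript starts, and 78 members had such a peak.

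Both samples were whole L4 larvae aged 47 hours, grown from animals synchronised by bleaching and L1 starvation, of strain OP790. This strain carries the transgene wgIs790, in which daf-8 from the construct p_wTRG5_insertion_c_0088B10 is fused to TY1, EGFP and 3xFLAG tags beside an unc-119(+) marker, in the unc-119 (tm4063) mutant background. Chromatin was sheared by sonication and precipitated with an antibody against GFP. The 2 biological replicates form 1 group, and how their cultures were separated is not stated, so the spread between them may be technical. The transgene is driven by whatever sequence its construct holds. Whole animals were used, so no value can be assigned to a tissue. No input or untagged sample was analysed here, so recovery that does not need the tagged protein cannot be told apart from recovery through DAF-8 at any member.

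DAF-8 is a receptor-regulated SMAD of the TGF-beta pathway that keeps larvae from becoming dauers, the arrested form taken under crowding and starvation. The ligand DAF-7 acts through receptors at the cell surface, and activated SMAD proteins enter the nucleus, where SMADs are known to contact DNA at the short sequence GTCT. Ribosomal protein genes are among the most highly transcribed genes of growing cells, and most of their products are needed in roughly equal amounts. Several of these genes carry snoRNA genes in their introns, whose RNAs guide the modification of ribosomal RNA.

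DAF-8-GFP peaks upstream of 7 ribosomal protein genes met the authors' threshold on reproducibility. The large-subunit genes were rpl-20, rpl-3, rpl-35 and rpl-15, and the small-subunit genes were rps-19, rps-1 and rps-24. They were 7 of the 78 members with a peak, or 8.97%, against 0.636% (98 of 15398) of all protein-coding genes with a peak in the same window. The threshold is on the irreproducible discovery rate (IDR), an estimate of how many peaks of that rank or better would fail to recur between replicates, and the highest IDR that the authors kept was 0.00997. At an IDR of at most 0.001 there were 3 members (rpl-20, rpl-3 and rps-19), against 0.149% of all genes. The other 71 members with a peak had none in the thresholded list within that window.

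The reference sequences under 5 of these 7 peaks are shown. Motif matches described further on are marked in all of them except the rps-24 window, which has no marked match. Each is the 201 bp centred on the summit, on the strand of the ribosomal protein gene, from the RefSeq genome sequence of WBcel235 (ce11). Capitals mark AGTGT or its reverse complement ACACT, and TACGGT or its reverse complement ACCGTA.
rpl-20, chrIV:4749986-4750186, minus strand: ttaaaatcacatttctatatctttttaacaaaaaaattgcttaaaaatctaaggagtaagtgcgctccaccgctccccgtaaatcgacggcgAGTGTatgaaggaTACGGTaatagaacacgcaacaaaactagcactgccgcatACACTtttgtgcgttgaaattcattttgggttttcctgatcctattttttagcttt
rpl-35, chrIII:7854620-7854820, plus strand: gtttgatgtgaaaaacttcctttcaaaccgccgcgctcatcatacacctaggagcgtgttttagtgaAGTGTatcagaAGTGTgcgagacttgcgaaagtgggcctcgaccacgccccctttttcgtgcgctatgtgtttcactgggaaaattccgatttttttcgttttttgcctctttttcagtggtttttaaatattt
rps-1, chrIII:4475587-4475787, plus strand: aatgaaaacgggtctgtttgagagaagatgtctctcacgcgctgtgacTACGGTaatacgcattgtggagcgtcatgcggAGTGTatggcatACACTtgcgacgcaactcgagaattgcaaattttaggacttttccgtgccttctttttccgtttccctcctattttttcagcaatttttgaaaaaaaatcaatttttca
rps-24, chrIV:385504-385704, plus strand: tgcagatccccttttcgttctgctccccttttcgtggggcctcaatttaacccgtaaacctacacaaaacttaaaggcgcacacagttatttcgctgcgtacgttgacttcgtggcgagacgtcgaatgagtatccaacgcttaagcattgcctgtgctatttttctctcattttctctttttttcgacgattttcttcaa
rpl-15, chrIV:654861-655061, minus strand: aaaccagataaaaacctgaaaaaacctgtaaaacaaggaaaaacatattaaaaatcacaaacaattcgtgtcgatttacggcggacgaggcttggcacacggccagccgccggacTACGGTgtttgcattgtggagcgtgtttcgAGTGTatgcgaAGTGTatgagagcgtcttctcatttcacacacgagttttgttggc

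The strongest peak of the family lay upstream of rpl-20, a large-subunit gene on chromosome IV (gene ID WBGene00004432, minus strand), at chrIV:4749924-4750247. Its signal, the authors' value for the peak in the combined list, was 122.2, higher than at 99.94% of genes with a peak. The 2 compared lists, whose values are given throughout as list 1 and list 2, gave 54.3 and 61.6, or 57.9 ± 5.16 (SD, n = 2), with an IDR of 0.000337. Both lists placed the rpl-20 promoter far above the all-gene medians of 11.2 and 11.9. The summit lay 308 bp upstream of rpl-20 and 154 bp upstream of the divergent gene Y17G9B.5, so the peak belongs to a shared promoter and cannot be given to either gene alone. List 1 corresponds to replicate 1 and list 2 to replicate 2, since 52.7% of the ranked list's list 1 entries were identical to peaks of replicate 1 alone and 49.4% of its list 2 entries to peaks of replicate 2 alone, with 0 identical to the other replicate in either case.

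At rpl-3 (WBGene00004414, plus strand, chromosome III), whose protein lies near the peptidyl transferase centre, the peak had a signal of 118.5. It stood at 48.1 in list 1 and 69.6 in list 2 (58.9 ± 15.2, SD, n = 2), with an IDR of 0.000388. Replicate 2 was the higher by 1.45 times, and its value of 69.6 was the highest of any member in either list. The summit lay 268 bp upstream of rpl-3 with no divergent gene within the window, and the next gene upstream, acs-19, runs in the same direction and ends before the peak.

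At rpl-35 (WBGene00004449, plus strand), whose product sits at the exit of the peptide tunnel, the peak at chrIII:7854558-7854881 had a signal of 90.6, with 39.0 in list 1 and 54.6 in list 2 (46.8 ± 11.0, SD, n = 2) and an IDR of 0.00117. Its summit, 414 bp upstream of the start, was the most distant of the 7. The fourth large-subunit gene, rpl-15 (WBGene00004427, minus strand), had the lowest signal of the 7, 66.6 at chrIV:654799-655122, with 43.5 in list 1 and 27.7 in list 2 (35.6 ± 11.2, SD, n = 2) and an IDR of 0.00628. It was the only one of the 7 with the higher value in replicate 1. Its summit lay 385 bp upstream of rpl-15 and 429 bp upstream of the divergent gene K11H12.8. This peak too cannot be given to either gene alone.

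Among small-subunit genes, rps-19 (WBGene00004488, minus strand), whose human counterpart is mutated in Diamond-Blackfan anaemia, had the strongest peak, 89.5 at chrI:9625953-9626276, with 44.9 in list 1 and 48.1 in list 2 (46.5 ± 2.28, SD, n = 2) and an IDR of 0.000758. The summit lay 319 bp upstream of rps-19 and 126 bp upstream of hsr-9, a divergent gene related to the DNA damage factor 53BP1. The rps-19 peak thus lay nearer to hsr-9 and cannot be given to either gene alone. The rps-19 values of the replicates were the closest of the 7, with list 2 at 1.07 times list 1. The rps-1 peak (WBGene00004470, plus strand, chrIII:4475525-4475848) had a signal of 75.25, with 35.3 in list 1 and 41.65 in list 2 (38.5 ± 4.46, SD, n = 2) and an IDR of 0.00251. Its summit, 231 bp upstream of rps-1 and the nearest to a start of the 7, fell inside the noncoding RNA gene F56F3.10. The gene upstream of it, ifet-1, which encodes a translational repressor, is divergent and starts 537 bp from the summit. The rps-1 peak therefore cannot be given to rps-1 alone.

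The gene rps-24, also a counterpart of a human Diamond-Blackfan anaemia gene (WBGene00004493, plus strand), had a peak at chrIV:385442-385765 with a signal of 71.5, with 31.85 in list 1 and 35.55 in list 2 (33.7 ± 2.62, SD, n = 2) and an IDR of 0.00512. Its summit lay 283 bp upstream of rps-24 and no divergent gene lay within the window. Across the 7, list 2 was higher in 6, and the lower of the pair of values still exceeded the all-gene 95th percentile of its list (23.4 in list 1, 24.4 in list 2). No gene for a small RNA (tRNA, snRNA, snoRNA or rRNA) lay within 200 bp of any of the 7 summits.

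**Figure D1:**
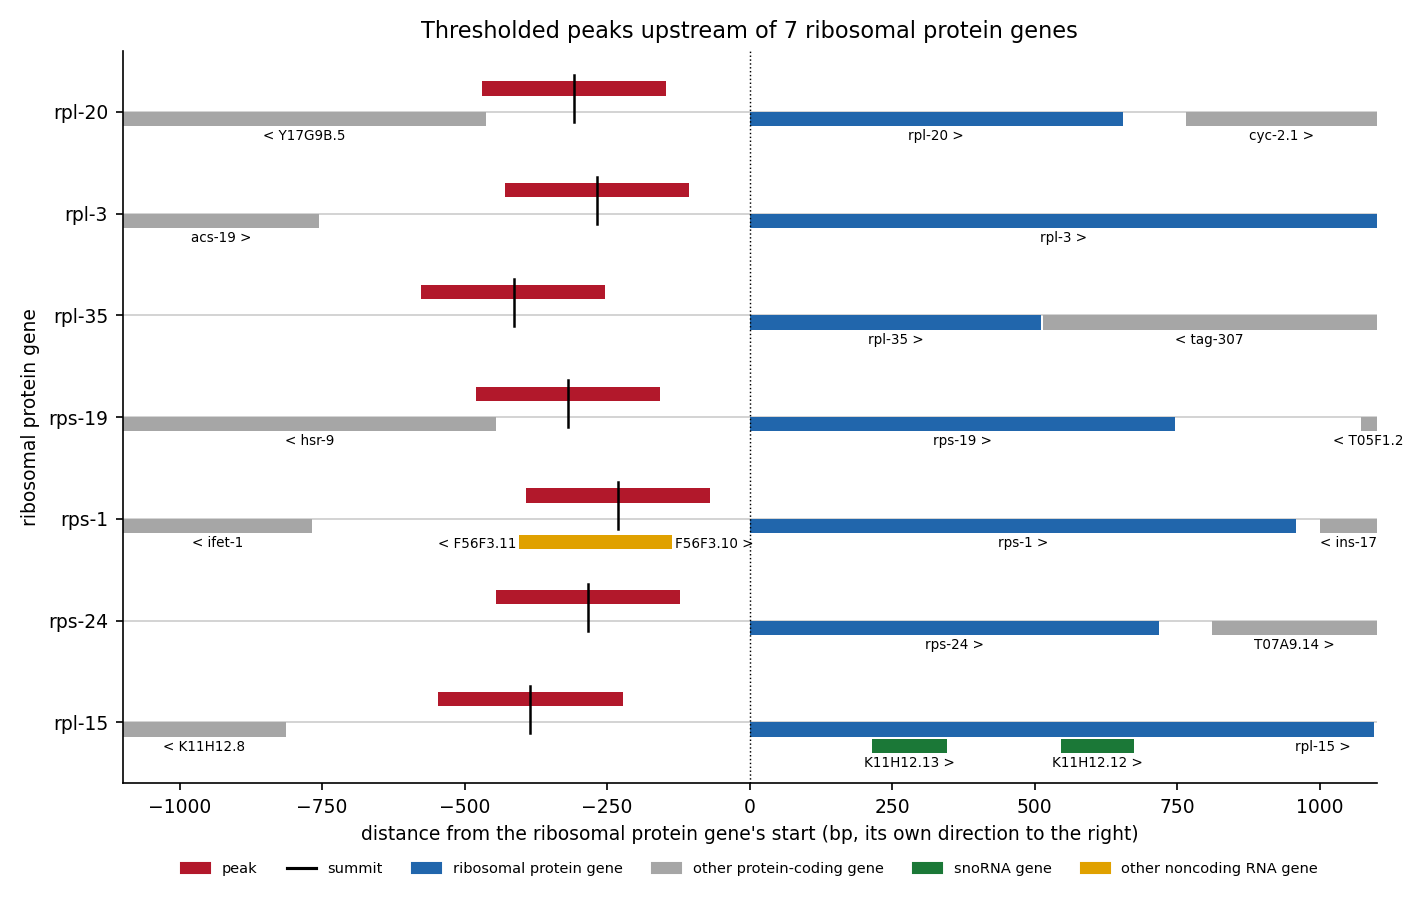
Each line shows 1 of the 7 ribosomal protein genes with a thresholded peak, aligned at its start and drawn in its own direction (horizontal axis, bp), with the peak, its summit and the annotated genes around it. All 7 peaks lie upstream of the ribosomal protein gene, with summits from 414 to 231 bp before the start, and 4 of the 7 genes have a divergent protein-coding neighbour whose start lies within 1000 bp of the summit.

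The replicates taken alone called fewer of these promoters. Replicate 1 alone called 3 of 61 members with a peak (rpl-20, rpl-3 and rps-19) against 0.296% of all genes, and replicate 2 alone called 3 of 68 (rpl-20, rpl-3 and rpl-35) against 0.327%. The list from pooled reads called 7 of 79 members, against 0.714% of all genes, and they were the same 7 genes as in the main list. No member was called in a single replicate or in the pooled list without being called in the main list. The depth of the libraries is unknown, so the lower number of calls in 1 replicate cannot be set against its depth.

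The ranks of the 7 within each replicate were high even where that replicate alone made no call. Their signals in each replicate alone were the same as their list values, from which the IDR of the main list was computed. High ranks of the 7 therefore follow from their call and are no separate measurement. In replicate 1 alone the lowest of them was rps-24, above 98.52% of genes with a peak in that replicate, with an IDR of 0.117. In replicate 2 alone the lowest was rpl-15, above 96.22% of genes, with an IDR of 0.759. The rpl-20 summit of replicate 1 alone was 331 bp upstream and that of replicate 2 alone 286 bp upstream, either side of the combined summit. The rps-19 summits were 319 and 231 bp upstream, the widest gap among the 7.

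Another 4 members fell between the authors' threshold and an IDR of 0.05, which brought the number to 11 of 78 (14.1%) against 1.79% of all genes. The highest was rpl-7A, a large-subunit gene with 2 snoRNA genes in its introns, at 56.3, with 32.6 in list 1, 26.6 in list 2 and an IDR of 0.0146. The gene rpl-24.2, known as a factor of ribosome assembly despite its name, followed at 55.95, with 28.5 in list 1, 25.8 in list 2 and an IDR of 0.0234. The small-subunit gene rps-26 had 51.9 (28.2 and 26.7, IDR 0.0204), and rps-12 had 51.6 (24.4 and 31.2, IDR 0.0211). For rps-12 the list of pooled reads gave an IDR of 0.636, so its place within 0.05 held in only one of the combined lists.

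Their summits lay closer to the start than those of the 7 called genes in 3 of 4 cases, at 43 bp upstream for rpl-7A, 115 bp for rpl-24.2 and 177 bp for rps-12. The rps-26 summit, 325 bp upstream, lay within 200 bp of the snoRNA gene F39B2.14 and 132 bp upstream of the divergent gene tmem-107. These 11 genes were also the members above the all-gene 95th percentile in both lists, 11 of 78 (14.1%) against 1.21% of all genes. IDR is computed from the same pair of values, so this count is no separate measurement.

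Outside these 11, the lists differed by more than 2 times at rpl-12 and rps-13 among the 5 next members by signal. IDR is computed from the same pair of values, so leaving out members of low IDR favours unequal lists among those that remain. The gene rpl-12, whose product forms the base of the stalk, had 64.3, next after rpl-15, but stood at 42.3 in list 1 and 11.6 in list 2, with an IDR of 0.386. The second value was below the all-gene median of list 2, and in replicate 2 alone the strongest rpl-12 peak was another one, of signal 30.9 and 92 bp downstream of the start. At rps-13, with 45.5 in all, list 1 held 29.7 and list 2 held 12.5. The opposite held at rps-8, with 42.5 in all, 14.1 in list 1 and 25.3 in list 2, and at rps-18, with 51.1 in all, 18.8 in list 1 and 29.7 in list 2. The rpl-11.2 values were nearer to each other, 21.2 and 24.1, for a signal of 46.1 and an IDR of 0.0792.

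**Figure D2:**
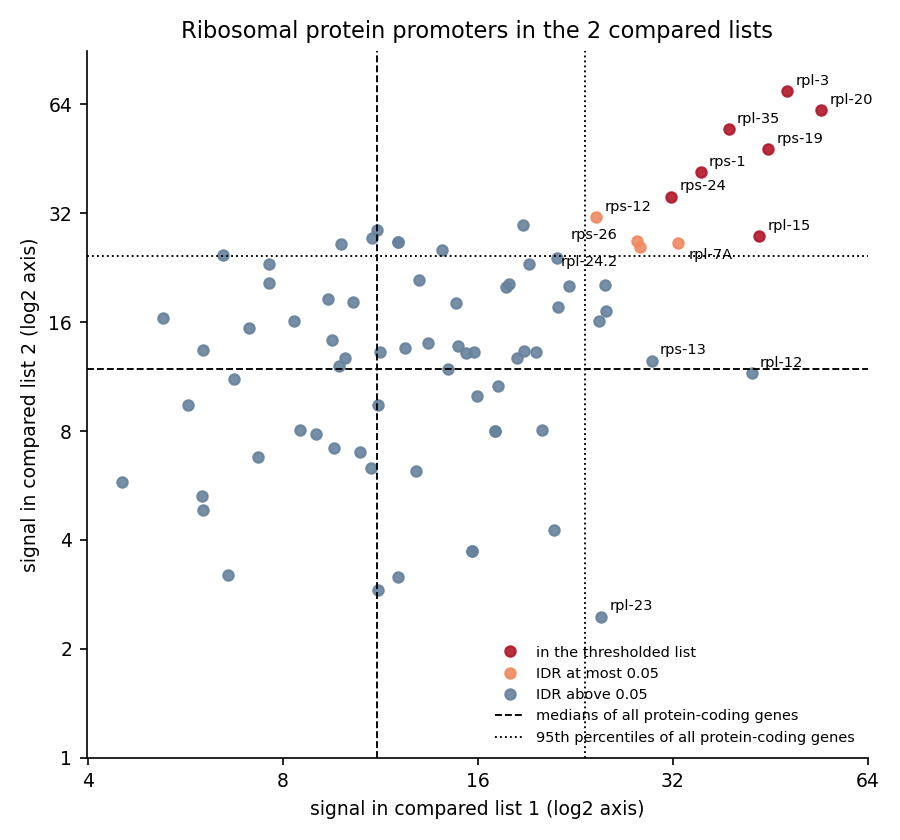
Each point is 1 ribosomal protein gene, placed by the signal of its strongest promoter peak in compared list 1 (horizontal) and list 2 (vertical), both on log2 axes, with the all-gene medians and 95th percentiles as lines. The 11 genes with an IDR of at most 0.05 fill the corner above both 95th percentiles, and rpl-12 and rpl-23 lie far from it with a high value in list 1 only. Members that share a peak share a point.

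Over the whole family the signal was shifted upward from that of other genes. The median signal of the 78 members was 29.3 (quartiles 22.2 and 39.7) against 22.55 (quartiles 16.5 and 29.4) over all 15398 genes, a ratio of 1.30. The ratio was smaller where a peak had to be nearest to the gene's own start (24.3 against 21.9, a ratio of 1.11), in replicate 2 alone (16.7 against 15.1, 1.105) and in replicate 1 alone (17.0 against 14.1, 1.21). The median of list 1 was 14.6 against 11.2 over all genes, and that of list 2 was 13.9 against 11.9. Above the all-gene median were 55 of 78 members (70.5%, against 50% by definition), and above the all-gene 95th percentile 16 of 78 (20.5%, against 5%). In both lists at once, 37 members (47.4%) were above the medians, against 27.8% of all genes, and 12 (15.4%) were below both, against 27.8%.

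The 7 called genes had a median of 89.5 and the 71 others a median of 27.4, so the shift was not limited to the called genes but was smaller without them. The highest signal at any protein-coding gene was 185 at F44E5.4, a gene of the heat shock HSP70 family, above every ribosomal protein gene. Genes are not replicates of one another and 3 pairs of members share 1 peak, so these counts and medians are descriptions.

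**Figure D3:**
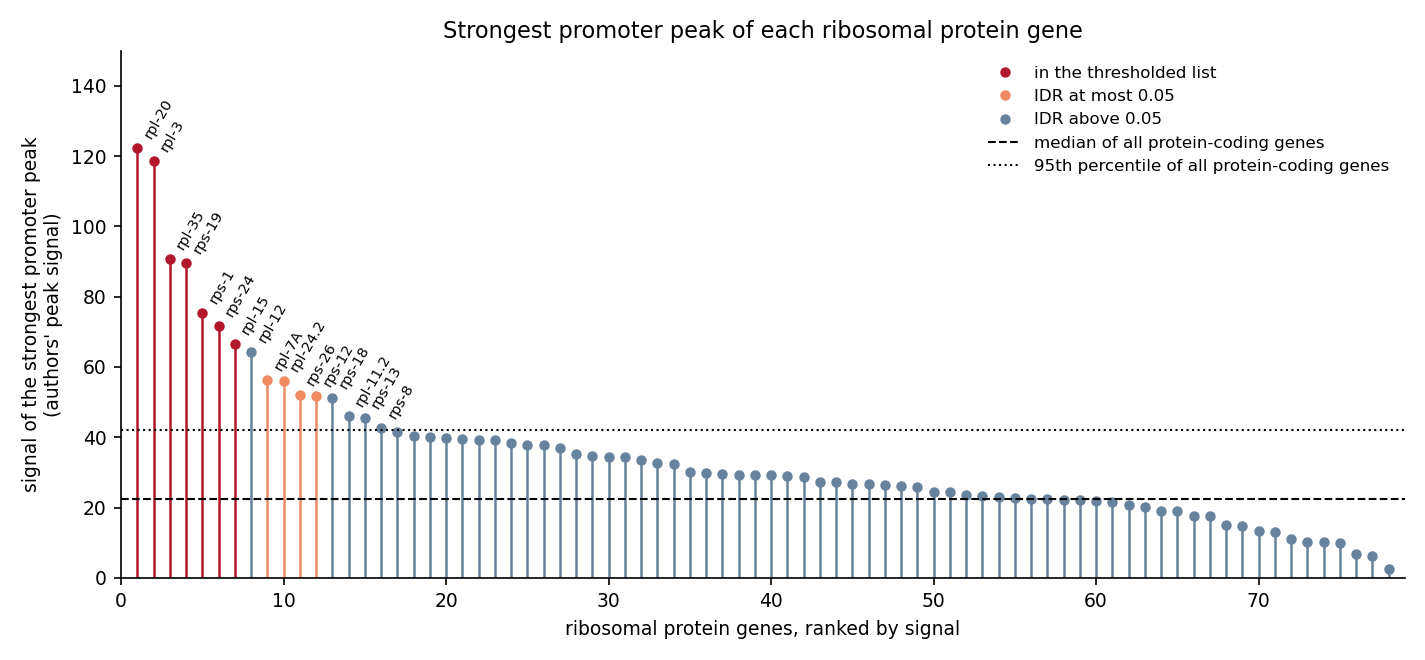
The 78 ribosomal protein genes with a promoter peak are ranked by the signal of that peak (vertical axis, the authors' peak signal), coloured by IDR class, with the all-gene median and 95th percentile as lines. The first 7 genes, from rpl-20 at 122.2 to rpl-15 at 66.6, are those in the thresholded list, and 16 genes stand above the 95th percentile.

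Large and small subunits both contributed. Of 45 rpl genes with a peak, 4 were called and the median signal was 27.4, and of 30 rps genes 3 were called and the median was 37.3. Among all genes with a peak, 0.636% were called. The higher median of the rps genes was seen in list 2 only. In list 2 the medians were 17.85 for rps genes and 13.35 for rpl genes. In list 1 they were 13.54 for rps genes and 14.83 for rpl genes, the reverse order. The range was wider for rpl genes, from 2.60 at rpl-6 to 122.2 at rpl-20, than for rps genes, from 10.01 at rps-9 to 89.5 at rps-19. The 3 stalk genes, whose acidic proteins recruit the elongation factors, were not called. Their signals were 34.5 at rla-1 (25.2 and 17.2 in the lists), 21.7 at rla-0 (15.96 and 9.99) and 6.22 at rla-2 (4.51 and 5.79), so rla-1 alone was above the all-gene median.

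At the low end, rpl-6 had 2.60, rla-2 6.22, rpl-18 6.69, rps-9 10.01 and rpl-29 10.1, all under the all-gene first quartile of 16.5. The combined signal of a peak can be lower than its values in the lists, and at rpl-6 list 1 held 12.05 and list 2 held 3.16. No ranked peak had its summit in the window of rpl-17, rpl-42 or rps-29. For rpl-42 the list of pooled reads had a peak of signal 21.2 lying 983 bp upstream, and for rps-29 one of signal 3.87 lying 682 bp upstream, and neither was called.

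Within 4 pairs of paralogs, one gene could stand well above the other. The signal was 46.1 at rpl-11.2 and 27.4 at rpl-11.1, 55.95 at rpl-24.2 and 26.6 at rpl-24.1, and 39.8 at rpl-41.2 and 22.5 at rpl-41.1. The rpl-25 pair was closer, with 29.8 at rpl-25.1 and 26.3 at rpl-25.2. List by list, rpl-11.1 stood at 7.63 and 20.6, so its list 2 value was near the 24.1 of rpl-11.2 and its list 1 value was not. Reads that match both copies of a pair could have been placed on either, and the rule for placing them was not stated in the labels.

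Some members that start close together in opposite directions shared 1 peak. The peak between rpl-36 and rps-14 had 39.1 (12.05 in list 1, 26.6 in list 2), that between rpl-24.1 and rps-10 had 26.6 (17.0 and 8.01), and that shared by rpl-39 and rps-30, with its summit 46 bp inside rpl-39, had 22.2 (15.7 and 3.73). None of the 3 shared peaks was called, and in each the lists differed by more than 2 times. A ratio over 2 between the lists was seen at 21 of the 75 distinct member peaks (28.0%), against 30.5% of the 13974 distinct peaks of all genes. All 21 were among the peaks that were not called. The IDR behind a call is computed from the same pair of list values, so this is no separate result.

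Across the 75 distinct member peaks the lists had a Spearman rho of 0.435, against 0.178 over 13974 peaks of all genes. Without the 7 called peaks the rho of the other 68 was 0.25. These are correlations across sites of the same pair of libraries, with the same depths and the same combined peak list, and sites are not independent replicates.

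The called peaks occupied a narrow stretch before the start. Their summits lay from 414 to 231 bp upstream with a median of 308 bp, and all 7 were intergenic with respect to protein-coding genes. The strongest peaks of all 78 members ranged from 989 bp upstream to 215 bp downstream, with a median of 313.5 bp upstream and quartiles of 521.5 and 28.75 bp upstream. Over all genes the median was 338 bp upstream. The called genes define this span, so they fall in it by construction. Of the 71 members that were not called, 15 (21.1%) had their strongest summit in it, against 2144 of 15300 (14.01%) of all genes not called. Among those members the signal in the span reached from 13.1 at rpl-36.A to 51.9 at rps-26, with 21.7 at rla-0 and 22.5 at rpl-41.1.

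**Figure D4:**
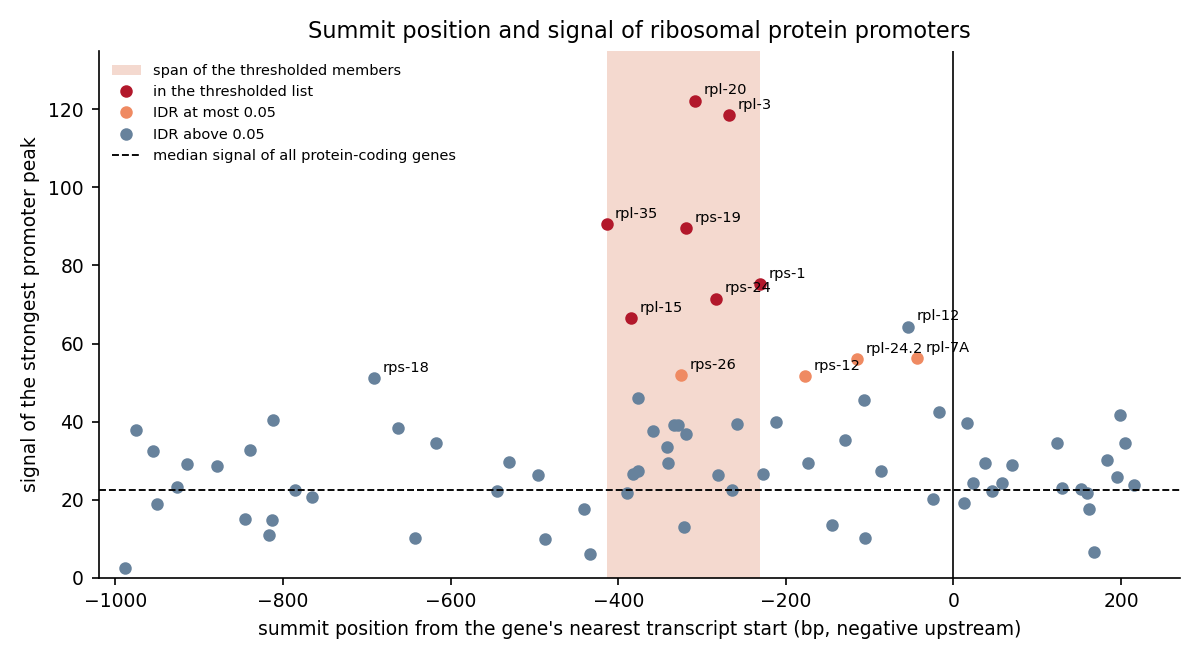
Each point is 1 ribosomal protein gene, with the position of its strongest promoter summit from the nearest transcript start (horizontal axis, bp, negative upstream) and the signal of that peak (vertical axis). The 7 called genes lie in the shaded span from 414 to 231 bp upstream, which holds 22 genes in all, while the summits of rpl-12 and rpl-7A are 54 and 43 bp before the start.

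Thresholded peaks outside the window were found at 2 members. The share of all genes with such a peak was not computed, so this count has no background to be set against. At rps-21, whose strongest window peak had only 15.15, a thresholded peak lay in an intron of the gene, 272 bp downstream of its start (chrIII:7189197-7189520), with a signal of 65.4, 32.1 in list 1, 31.7 in list 2 and an IDR of 0.00703. At rpl-27 a thresholded peak of signal 70.6 (44.8 and 29.3, IDR 0.0045) lay 619 bp downstream of the start and 64 bp past the end of the gene, within 200 bp of egl-30, which encodes a G protein alpha subunit. A second thresholded peak, 828 bp downstream in an exon of egl-30, had the same list values (44.8 and 29.3) and an IDR of 0.00441 but a combined signal of 4.92, so the combined signals of these neighbouring peaks differ although their list values do not. The gene egl-30 runs in the same direction as rpl-27 and has a start between these 2 neighbouring summits, so neither peak can be given to rpl-27 alone. The peaks at rps-21 and rpl-27 are counted in no share above, because the window ends 250 bp after the start.

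The chromosomes differed in the number of called members. Chromosomes III and IV held 3 called genes each, of 17 and 18 with a peak, chromosome I held 1 of 24, and chromosomes II, V and X held none of 9, 8 and 2. Over all chromosomes the called share of all genes was 0.636%, and that share on each chromosome is not given here. The median signal was 37.9 on chromosome X (2 genes), 37.5 on IV, 30.9 on I, 27.4 on II, 25.9 on III and 23.3 on V. The 3 called genes of chromosome III thus stood over a low median. With 7 called genes no order among chromosomes can be read from these numbers.

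Ribosomal protein genes often host snoRNA genes, and 1 of the called genes, rpl-15, was such a host. Of the 81 members, 13 (16.05%) had an annotated snoRNA gene in an intron, against 159 of 19973 protein-coding genes (0.796%) with one inside. Of the 12 hosts with a promoter peak 1 was called (8.33%), near the 6 of 66 (9.09%) among members with a peak and no snoRNA gene. Over all genes with a peak the called share was 0.636%. The 12 hosts had a median signal of 31.25, and the 66 members without a snoRNA gene had 28.1. The difference of 3.13 depended on the window: it was 14.6 (39.96 against 25.3) from 500 bp upstream to 100 bp downstream, and 0.280 (33.5 against 33.2) from 2000 bp upstream to 500 bp downstream. The highest hosts were rpl-15 at 66.6, rpl-7A at 56.3, rps-12 at 51.6, rps-13 at 45.5 and rps-4 at 40.0, of which rpl-15 was called.

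At the snoRNA genes themselves no peak was called. Of 19 intronic snoRNA genes in members, 0 had a thresholded peak with its summit within 200 bp, against 25 of all 346 annotated snoRNA genes (7.22%). A share of that size among 19 genes would be 1 or 2, so the 0 does not set them apart. The strongest ranked peak lay at B0412.6 and B0412.7 inside rps-29, with 46.75 (17.1 in list 1 and 28.1 in list 2, IDR 0.122), and the next at F28D1.13 inside rps-23, with 45.6 (27.9 and 18.1, IDR 0.115). At the snoRNA genes of rpl-15, the called host, K11H12.13 had a peak of 19.6, below the all-gene promoter median, and K11H12.12 had none. The called peak of rpl-15 is therefore 385 bp before its start and not at its snoRNA genes.

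Other genes of the translation machinery, taken from lists of gene names, held 1 called gene in all. Of 33 translation factor genes with a peak, 0 were called, and their median signal was 30.6, above the 29.3 of the ribosomal proteins, with eif-3.C the highest at 51.5 (IDR 0.0313). Of 58 mitochondrial ribosomal protein genes 1 was called, mrps-28 at 83.9, with a summit 998 bp upstream at the edge of the window, and the median was 23.8. Of 29 aminoacyl-tRNA synthetase genes 0 were called with a median of 24.21, led by ears-2 at 47.4, and of 24 genes for ribosome biogenesis and snoRNP proteins 0 with a median of 24.5, led by pro-1 at 55.2 (IDR 0.0381). At the all-gene share of 0.636%, lists of this size hold fewer than 1 called gene, so these zeros do not separate the lists from other genes, and the difference between the lists was not tested.

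**Figure D5:**
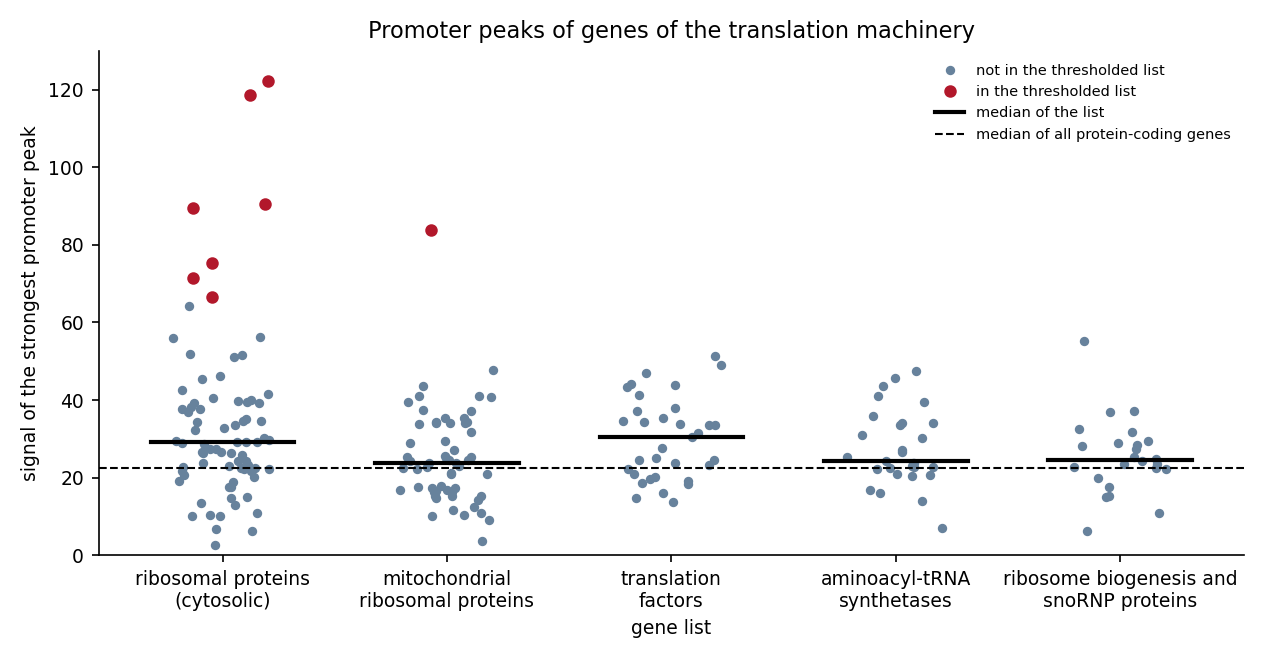
Signal of the strongest promoter peak (vertical axis) of each gene in 5 lists of the translation machinery, with the median of each list as a bar and the all-gene median as a dashed line. The 7 called ribosomal protein genes lie at 66.6 and above, and the other lists reach that range with mrps-28 alone, while the medians of the ribosomal proteins and the translation factors lie close together at 29.3 and 30.6.

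The sequences under the peaks were searched on both strands, over the 201 bp centred on each summit. GTCT (reverse complement AGAC), the core that SMAD proteins contact, was in 6 of the 7 called windows (85.7%), in 47 of the 75 member windows (62.7%), and in 64.2% of the windows of all genes. It was in 78.4% of the 74 windows of other thresholded promoter peaks. Most windows of any gene thus hold this short sequence, and rpl-20, with the highest signal, was the one without it. The palindrome GTCTAGAC was in none of the 75 member windows and in 0.193% of all windows.

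Other sequences were counted in the same windows. GCGCGC was in 0 of 7 called members against 22 of 74 (29.7%) of the others, with 4 of 75 in all members and 2.46% over all genes. CGAACC (reverse complement GGTTCG) was in 0 of 7 against 16 of 74 (21.6%), with 4.13% over all genes, and TATAAA (reverse complement TTTATA) in 0 of 7 against 15 of 74 (20.3%), with 18.8% over all genes. With 7 windows, counts of 0 do not set the called members apart from the other peaks. The GC content of the called windows had a median of 44.3%, against 39.8% for members not called, 47.8% for the other thresholded promoter peaks and 38.3% for all genes. The part of base composition in the signal was not tested.

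A pair of sequences was chosen after the called windows had been seen, and their counts in those windows are therefore only descriptive. AGTGT (reverse complement ACACT) was in 6 of 7 called windows with 14 matches, 12 of them centred within 50 bp of the summit, and rps-24 had none. It was in 20 of the 68 windows of members not called (29.4%), in 36 of the 74 other thresholded promoter windows (48.6%) and in 29.15% of all windows. The longer form AAGTGT, which contains AGTGT, was in the same 6 called windows. It was in 3 of 68 members not called (4.41%), in 17 of 74 other thresholded windows (22.97%) and in 12.2% of all. AAGTGT was 1 of 2080 sequences of 6 bases that were counted, each together with its reverse complement. Others were as frequent in the called windows, among them AAAAAA (7 of 7, 55.3% of all windows) and AAATCG (6 of 7, 20.3% of all windows). TACGGT (reverse complement ACCGTA) was in 4 of 7 called windows (among them rpl-20, rps-1 and rpl-15), in 12 of 68 others (17.6%), in 10 of 74 (13.5%) and in 5.94% of all windows.

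In 4 of the 5 printed windows there was a pair of AGTGT matches, and the rps-24 window had none. At rpl-35 both are AGTGT, 31 and 20 bp before the summit, and at rpl-15 both are AGTGT, 47 and 58 bp after it. At rps-1 an AGTGT lies 18 bp before the summit and an ACACT 6 bp before it, and at rpl-20 the pair lies 6 bp before and 47 bp after. A match is a description of the letters in the window and not a site of binding, and which protein, if any, contacts these letters was not measured.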

How the data were processed

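The deposited files are narrowPeak lists on ce11, per the file names: a ranked and a thresholded list for each replicate alone, for pooled reads and for the true replicates, which was the main pair (101032 ranked and 240 thresholded peaks). Peak signal is the authors' deposited value, while neither its scaling nor any aligner, caller or version is given in the sources used here. The score is a deposited whole number from the IDR and was not used further, and IDR was computed from the deposited −log10 column. Thresholded lists used 1 further annotation file, per the texts deposited with them. Read counts were not used here, so depth is unknown and no counting interval is given.

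Genes came from Ensembl release 115 and sequence from RefSeq, both WBcel235, and every peak ended within its chromosome. Coordinates count from 1. Calls, medians, positions and motif counts were computed with Python 3.11.15, pandas 2.3.3 and numpy 2.4.6, and drawn with matplotlib 3.10.9. The peak rule was tested on simulated peaks. No test was run, since 1 group allows none. Named genes were those called, those with an IDR of at most 0.05, the 5 next by signal, the 5 lowest, those without a peak, the 5 highest snoRNA hosts, paralog pairs, rla genes and genes that share a called promoter; rpl-23, rpl-36.A and the genes at out-of-window peaks were chosen after their values were seen. Members and lists were chosen with earlier results of these data known. The sequences under 2 called peaks are not reported here.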

Additional observations from a re-analysis of the deposited data

How the results depend on the processing

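The number of members with a thresholded promoter peak, 7, was 3 at an IDR of at most 0.001 and 11 at 0.05, and 3 without either replicate. It was 5 when a peak had to be nearest to the member's own start, which removes the rpl-20 and rps-19 peaks (7.46% of members with a peak, against 0.570% of all genes), 8 with a window from 2000 bp upstream to 500 bp downstream (9.88%, against 0.893%), and 7 under the other alternatives. The median signal, 29.3, was 24.3 with own starts, 27.0 with the peak of lowest IDR, 33.5 in the wide window and 26.3 in one from 500 bp upstream to 100 bp downstream, and ran from 16.7 to 17.0 without a replicate. The median position, −313.5 bp, was −105 with own starts, −286 in the pooled lists, −334 in the wide window and −231 in the narrow one, and from −282 to −263 without a replicate. The excess of snoRNA hosts, 3.13, was 0.660 with own starts, 5.16 with the lowest IDR, 2.00 in the pooled lists, 0.280 and 14.6 in the wide and narrow windows, 3.86 without rpl-24.2, and 1.76 to 2.54 without a replicate. The number above both all-gene medians, 37 of 78, ran from 28 of 67 (41.8%, against 27.9% of all genes) to 40 of 78 (51.3%, against 27.6%). In a single list it was 51 or 52 of 78, against 50% of all genes, and the pooled lists could not give it. No value changed sign. A single replicate has another scale of signal than the combined list. For the other moves the cause was not tested. No paired analysis was possible because there is only 1 group. Unknown depth limits what an absent call can say.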
